A study of Mus musculus with 72 samples.

Results

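The 1346 reporters that had landed on mouse chromosome 2 were described, out of 17857 integrations listed in the series (7.54%). They were chosen by position alone, as every integration listed on chromosome 2 of the mm9 genome in any pool. The series used TRIP, an assay in which copies of a reporter gene, each with its own barcode, land all over the genome and the output of each copy is counted by its barcode. The cells were EBRTcH3, a mouse embryonic stem cell line that makes a tetracycline-controlled transactivator under the ROSA26 promoter of the cell, grown with leukemia inhibitory factor, PD0325901 (a MEK inhibitor) and CHIR99021 (a GSK-3 inhibitor). Every reporter carried the mouse PGK promoter (mPGK) and was delivered by the mPB transposase on the piggyBac transposon. The pools, named mPGK-A to mPGK-F, number 6. Cells with low eGFP were sorted and grown for 5 days, kept as small pools for 7 days and split into 2 cultures, which grew for 7 days more. The samples used here hold no untreated group and no other promoter, so the comparisons are between places in the genome and between pools. Chromosome 2 held 211 reporters in mPGK-A, 249 in mPGK-B, 183 in mPGK-C, 249 in mPGK-D, 222 in mPGK-E and 232 in mPGK-F. The table holds barcode counts and no transcripts of the cells, so the cell type was not checked against marker genes.

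A reporter placed in the genome takes on part of the activity of its surroundings, which is known as a chromosomal position effect. Open, gene-rich chromatin is known to favour output, while regions packed as heterochromatin or tethered to the nuclear lamina are known to damp it. The piggyBac transposon inserts at TTAA and is known to favour open chromatin, so where reporters lie is itself not even. Mouse chromosome 2 is a large autosome known for the HoxD cluster of developmental genes, the imprinted Gnas locus and a large cluster of olfactory receptor genes. Genes were not assigned to positions here, since no annotation of mm9 was used.

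The sequence shared by all reporters is that of the promoter, and the bases that differ are those of the barcode. Pgk1 encodes phosphoglycerate kinase, an enzyme of glycolysis made in nearly every cell. The 250 bases before the RefSeq start of Pgk1 (GRCm38.p6, chrX:106186850-106187099, plus strand) are shown because this is the native copy of the promoter that all 1346 reporters share. The sources used here do not give the exact fragment in the plasmid. Capitals mark CG dinucleotides, which read the same on both strands.
Pgk1: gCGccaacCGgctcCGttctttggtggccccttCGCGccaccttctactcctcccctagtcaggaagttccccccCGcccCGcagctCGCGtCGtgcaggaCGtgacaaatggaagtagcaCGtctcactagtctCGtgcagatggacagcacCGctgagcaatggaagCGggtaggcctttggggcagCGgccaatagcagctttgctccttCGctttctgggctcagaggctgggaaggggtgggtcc
The stretch held 17 CG dinucleotides and 62.8% G and C, against a median of 6 and of 52.4% over 32851 mouse promoter stretches of the same length, of which 76.5% held fewer CG dinucleotides than Pgk1.
Barcodes of 16 bases told the reporters apart. Those of the 3 highest and the 3 lowest reporters of chromosome 2 with RNA reads in both cultures are shown, since they mark the ends of the range and are described below by their positions.
mPGK-D at 151836226: gacattgaacacatgc
mPGK-D at 151834907: tcatctcgaattcagt
mPGK-E at 162856982: gactatgaggtttttt
mPGK-B at 119152174: caatgctatttcctag
mPGK-B at 73585217: cctgataaatgaaggc
mPGK-A at 22815157: ctactgtcttaaaatt

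Expression of a reporter is given on the log2 scale as the share of RNA reads over the share of DNA reads of its barcode in a culture, averaged over both cultures, minus the median of all reporters in the pool. Depth was alike across pools, with 3386477 to 3693449 DNA reads and 2880244 to 3508366 RNA reads per pool and culture over the listed barcodes. The median reporter of chromosome 2 had 1819 DNA and 563 RNA reads, both cultures summed, against 1659 and 552 in the rest of the series. Spearman's rho between the cultures of a pool, over the reporters of chromosome 2, was 0.920 to 0.950. No barcode was listed at the same position in several pools, while 81 reporters of chromosome 2 had a barcode that was also listed in another pool at another place.

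No difference in level between chromosome 2 as a whole and the rest of the genome was detectable over the pools, and its reporters spread over nearly the same range. From the 5th to the 95th percentile its reporters ran from -4.38 to 3.38, a range of 7.75 log2 units, against -4.43 to 3.42 and 7.85 in the rest. The SD between reporters was 2.40 on chromosome 2 and 2.43 in the rest, while the error SD of a single culture, from the difference between cultures, was 0.77 on chromosome 2. More than 16-fold below the pool median lay 83 reporters (6.17%) on chromosome 2, against 6.50% in the rest, and more than 16-fold above it lay 30 (2.23%), against 2.49%. The mean over pools of chromosome 2 minus the rest was 0.05 ± 0.31 (SD, n = 6 pools), or 1.04-fold, higher in 3 and lower in 3 pools (exact two-sided sign-flip permutation test over pools, p = 0.72). With all 21 chromosomes fitted together, the difference was 0.05 ± 0.10 (SE, limma, adjusted p = 0.70), while 4 other chromosomes (19.0% of 21) were higher and 8 (38.1%) lower. This level turned to -0.02 without mPGK-F.

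Single reporters departed from the pool median at shares near those of the whole series. Of the 1346 reporters, 501 were higher and 424 lower than the typical reporter of their pool (edgeR quasi-likelihood test of 2 RNA against 2 DNA counts, adjusted p of 0.05), or 37.2% and 31.5%. Over all 17857 integrations, 36.8% were higher and 33.8% were lower, so both shares were near the background. The share of higher reporters ran from 31.3% in mPGK-B (78 of 249) to 43.1% in mPGK-F (100 of 232). The share of lower reporters ran from 27.2% in mPGK-F (63 of 232) to 36.9% in mPGK-B (92 of 249). With TMM factors alone, not moved to the pool median, 448 were higher and 496 lower, so the direction with more calls turned with the scaling.

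**Figure D1:**
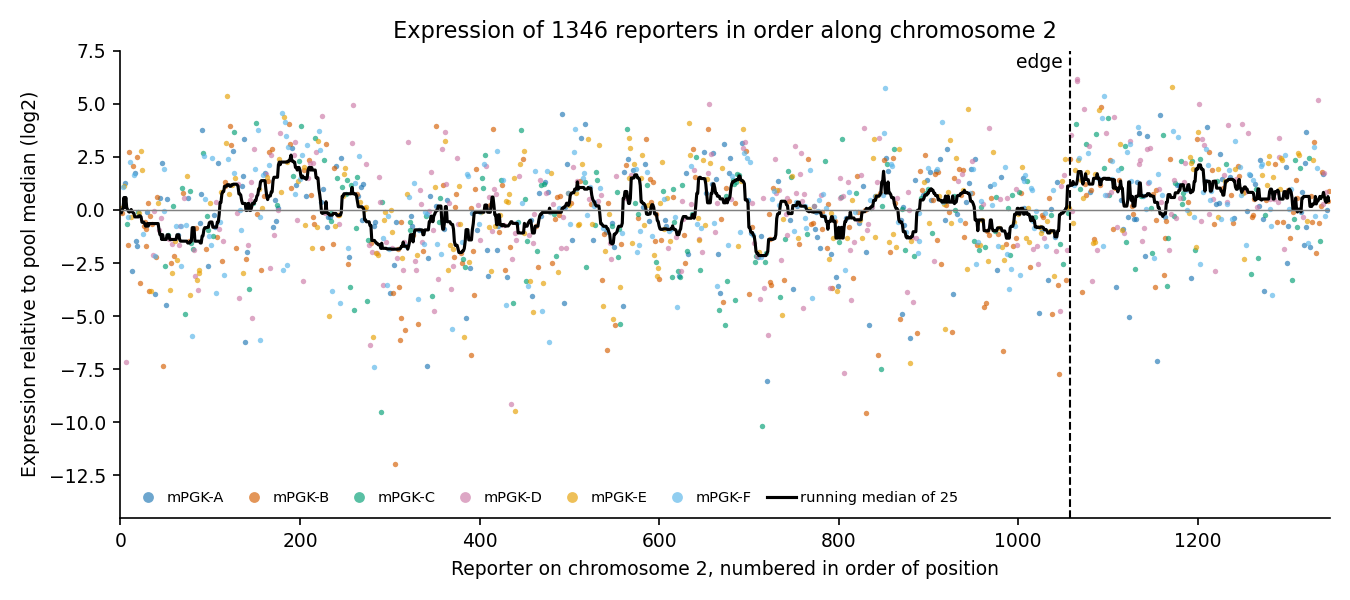
Expression of the 1346 reporters of chromosome 2 (log2, relative to the median of their pool) in order of position, coloured by pool, with a running median over 25 reporters in black and the edge before the distal segment as a dashed line. The running median stays below 0 between about the first 30 and 100 reporters and again in the lowest stretch, and lies above 0 over nearly the whole distal segment.

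Along the chromosome, the values divided into a long proximal part of mixed, slightly low output and a distal part of higher output. Segmentation of the values in order of position, with a penalty of 3 and at least 10 reporters in a segment, placed a single edge, between 150513422 and 150734625. The 289 reporters in the distal 30.6 Mb, from 150734625 to 181353950, had a mean of 0.88 ± 2.03 (SD). The 1057 in the proximal 147 Mb, from 3148841 to 150513422, had a mean of -0.41 ± 2.41 (SD). Distal reporters lay above the pool median in 198 cases (68.5%), against 489 (46.3%) of the proximal ones. The distal part was also nearly free of strongly reduced reporters, with 2 (0.69%) more than 16-fold below the pool median, against 81 (7.66%) in the proximal part. All 13 reporters without RNA reads were proximal, where 1057 reporters lay against 289 in the distal part. Of the distal reporters, 54.3% were called higher and 15.9% lower than the pool median, against 32.5% and 35.8% of the proximal ones (edgeR, adjusted p of 0.05). Reporters were denser in the distal part as well, at 9.44 per Mb against 7.17 per Mb in the proximal part. Because the edge was chosen from these values, they are a description.

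The step at the edge could be tested in pools that had not placed it. The edge was placed in 5 pools and the step was then read in the pool left out, for each pool in turn. It came to lie at 150734625 in 5 of the 6 cases, and at 149636852 without mPGK-B. In mPGK-A, distal reporters averaged 0.21 and proximal ones -0.34. In mPGK-B the means were 0.40 for distal and -0.84 for proximal reporters. In mPGK-C they were 0.62 for distal and -0.52 for proximal reporters. Distal means thus lay above proximal means in these 3 pools, with the smallest step in mPGK-A. In mPGK-D the means were 1.40 for distal and -0.34 for proximal reporters. In mPGK-E they were 1.42 for distal and -0.30 for proximal reporters, and in mPGK-F 1.15 for distal and -0.11 for proximal reporters. The step was 1.27 ± 0.44 (SD, n = 6 pools), or 2.42-fold, higher in 6 of 6 pools (exact two-sided sign-flip permutation test, p = 0.031, the smallest that 6 pools can give). The SD between reporters within either part, from 1.70 to 2.65 in the pools, exceeded the step.

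With a lower penalty of 2, the proximal part divided further into stretches that alternated between low and high, giving 5 segments in all. The first, from 3148841 to 20243673, held 115 reporters with a mean of -0.88 ± 2.08 (SD). The second, from 20313123 to 39320813, was high, with 159 reporters at 0.76 ± 2.30 (SD). The third, from 39854751 to 48636707, was the lowest, with 44 reporters at -2.66 ± 2.68 (SD). Next came a long segment of 102 Mb, from 48741832 to 150513422, with 739 reporters at -0.46 ± 2.34 (SD), which led up to the distal segment. The steps between neighbours were 1.64, -3.42, 2.21 and 1.34 from proximal to distal. The edges were chosen from the values of all 6 pools, so these steps and their values in the pools are a description. The fall between 39320813 and 39854751 was the steepest of the 4, with pool values from -5.27 to -2.10. Of these edges only the last was placed again, within 1 Mb, whichever pool was left out. The first was placed again without mPGK-D only, and the middle edges in none of the 6 cases. Without any of the other 5 pools, the same penalty gave 2 segments, and the 3 proximal edges were lost.

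**Figure D2:**
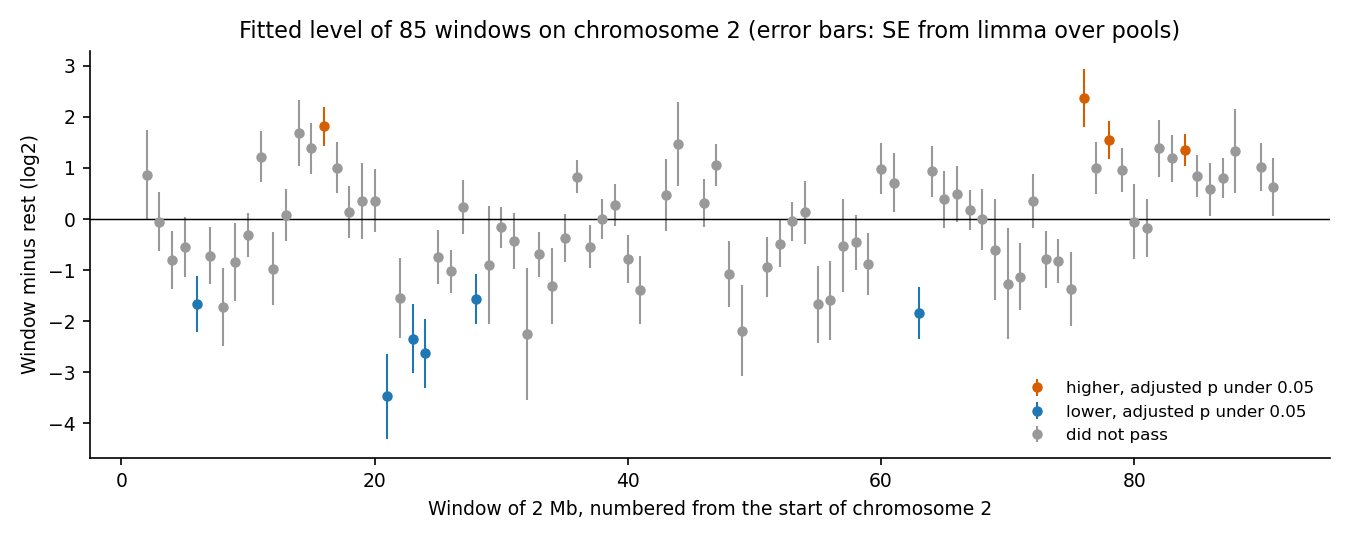
Fitted difference from the rest of the genome for the 85 windows of 2 Mb on chromosome 2 with reporters in at least 3 pools (log2, limma over pools, error bars are SE), numbered from the start of the chromosome. Higher windows are orange and lower windows are blue where the adjusted p was under 0.05, with 4 higher and 6 lower, and the others are grey.

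Fixed windows of 2 Mb were tested with pools as the units. Of the 90 windows of chromosome 2 with a reporter, 85 had reporters in at least 3 pools, and 4 of these were higher (4.71%) and 6 lower (7.06%) relative to all other reporters (limma, adjusted p of 0.05 over the 1176 windows of the genome). Over all 1176 windows, 7.57% were higher and 9.86% were lower, so chromosome 2 held no more such windows than the background. The median difference of a window was -0.05 on chromosome 2 and -0.20 over all windows. At an unadjusted p of 0.05, 13 windows of chromosome 2 were higher and 11 lower. Reporters of different pools in a window share their surroundings, so the pools repeat the cells and the landing sites and not the place.

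The 4 high windows lay in the second and in the distal segment. The highest, from 150000001 to 152000000, spans the distal edge and held 14 reporters, which ran from -0.60 to 6.17 with a median of 2.11. Its pool means were 2.41 in mPGK-B, 1.63 in mPGK-C, 3.93 in mPGK-D, 0.93 in mPGK-E and 1.80 in mPGK-F, all above 0, and mPGK-A had no reporter there. The window was 2.37 ± 0.56 (SE) above the rest, or 5.17-fold (limma, adjusted p = 0.0050), and 1.66 above it without mPGK-D (adjusted p = 0.073). The window from 30000001 to 32000000 held 27 reporters, 23 of them above the pool median. Its pool means were 1.59 in mPGK-A, 2.49 in mPGK-B, 2.63 in mPGK-C, 0.95 in mPGK-D, 1.22 in mPGK-E and 1.37 in mPGK-F. It was thus high in every pool, 1.82 ± 0.38 (SE) above the rest, or 3.52-fold (limma, adjusted p = 0.0028). This window passed whichever pool was left out and in 13 of 13 alternatives.

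The other high windows lay distally, from 154000001 to 156000000 and from 166000001 to 168000000. The window at 154000001 held 33 reporters and was 1.55 ± 0.38 (SE) above the rest, or 2.93-fold (limma, adjusted p = 0.0058). Its pool means ran from 0.82 to 2.30 in 5 pools and lay at -1.36 in mPGK-A, where 3 reporters fell. Of its reporters, 6 were more than 16-fold above the pool median. The window at 166000001 held 36 reporters, the most of the 10 windows, and was 1.35 ± 0.32 (SE) above the rest, or 2.55-fold (limma, adjusted p = 0.0046). It had the smallest SD of the 10, 1.46 over its reporters, with pool means from 0.85 in mPGK-B to 1.76 in mPGK-C and no reporter more than 16-fold off the pool median. Both passed whichever pool was left out.

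Of the 6 low windows, 3 lay in the lowest segment. The lowest, from 40000001 to 42000000, held 7 reporters from 5 pools, none above the pool median, with values from -7.38 to -0.73. Its pool means were -0.73 in mPGK-A, -1.57 in mPGK-B, -3.33 in mPGK-D, -5.97 in mPGK-E and -7.38 in mPGK-F, with 1 reporter each except 3 in mPGK-D. Of the 7 reporters, 2 had no RNA reads. The window was -3.47 ± 0.84 (SE) from the rest, or 11.1-fold lower (limma, adjusted p = 0.0055), and did not pass once the 10% of barcodes with the fewest DNA reads were dropped (-2.17, adjusted p = 0.12). No reporter lay above the pool median in either of the windows from 44000001 to 46000000 and from 46000001 to 48000000, which held 15 and 9 reporters. They were -2.34 ± 0.68 and -2.63 ± 0.68 (SE) from the rest (limma, adjusted p = 0.018 and 0.0089). Both rested on mPGK-B, which held some of the lowest values, at -7.94 over 2 reporters in the first and -3.45 over 5 in the second. The 2 reporters were at -3.92 and -11.96, and the pseudocount sets the -11.96, which came from 0 and 1 RNA reads. Without mPGK-B the differences were -1.51 and -1.80 (limma, adjusted p = 0.080 and 0.25). The window at 44000001 also missed the threshold without mPGK-A (-2.22) and without culture 1 (-2.26), each with an adjusted p of 0.057 in limma.

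The other 3 low windows lay apart from each other. The window from 124000001 to 126000000 held 18 reporters and was -1.85 ± 0.51 (SE) from the rest, or 3.59-fold lower (limma, adjusted p = 0.013). Its pool means were below the pool median in all 6 pools, from -5.78 in mPGK-B, where a single reporter fell, to -1.29 in mPGK-A, and it did not pass without mPGK-E (-1.56, adjusted p = 0.061) or without culture 1 (-1.55, adjusted p = 0.053). The window from 10000001 to 12000000 held 16 reporters and was -1.67 ± 0.55 (SE) from the rest (limma, adjusted p = 0.036), lower in 5 of 6 pools. The window from 54000001 to 56000000 held 17 reporters from 5 pools and was -1.57 ± 0.49 (SE) from the rest (limma, adjusted p = 0.028). It had no reporter of mPGK-A, and each of the 5 means was below the pool median. These last 2 calls were the least stable of the 10. They passed with 2 and 3 of the 6 pools left out in turn, with differences from -2.18 to -1.16 and from -1.80 to -1.33 and adjusted p up to 0.18 and 0.094. Neither passed without culture 1, where the difference was -1.63 at 10000001 (limma, adjusted p = 0.062) and -1.02 at 54000001 (adjusted p = 0.15).

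**Figure D3:**
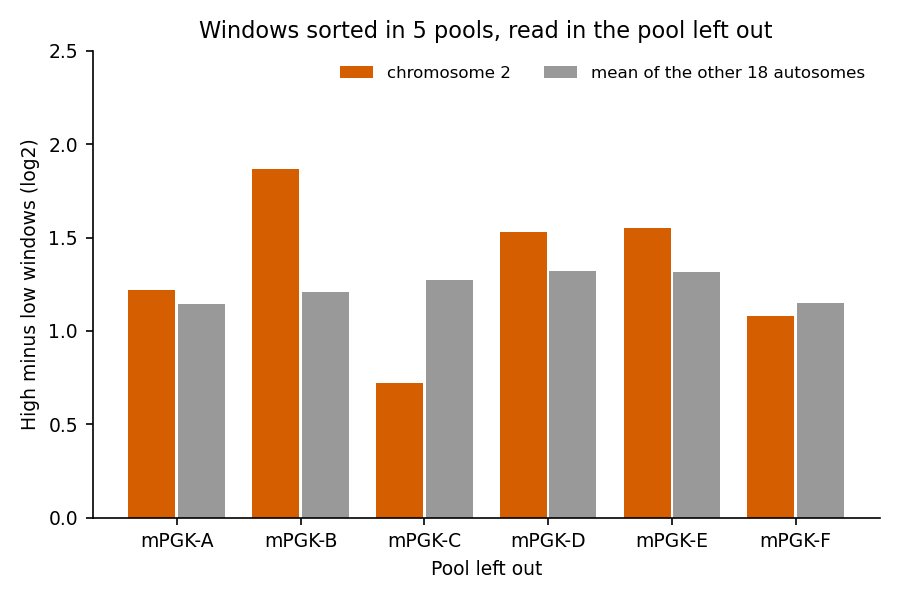
Difference in mean expression (log2) between reporters in high and in low windows of 2 Mb, where windows were sorted in 5 pools and read in the pool left out, for chromosome 2 (orange) and as the mean of the other 18 autosomes (grey). All 6 bars of chromosome 2 lie above 0, from 0.72 in mPGK-C to 1.87 in mPGK-B.

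The landscape carried over from pool to pool. Windows of chromosome 2 were called high or low by their mean in 5 pools, and the reporters of the sixth pool were then compared between them. In mPGK-A, 117 reporters in high windows averaged 0.32 and 93 in low windows averaged -0.90. In mPGK-B the means were 0.28 in high and -1.58 in low windows. In mPGK-C they were 0.07 in high and -0.65 in low windows, the smallest difference of the 6. In mPGK-D the means were 0.90 in high and -0.63 in low windows. In mPGK-E they were 0.84 in high and -0.71 in low windows, and in mPGK-F 0.62 in high and -0.46 in low windows. The difference was 1.33 ± 0.41 (SD, n = 6 pools), or 2.51-fold, higher in 6 of 6 pools (exact two-sided sign-flip permutation test, p = 0.031, the smallest that 6 pools can give). The other 18 autosomes, treated alike, gave a mean of 1.24 ± 0.08 (SD over 6 pools). Chromosome 2 exceeded them by 0.09 ± 0.40 (SD, n = 6 pools), in 4 of 6 pools (exact sign-flip permutation test, p = 0.56), so no difference from them was detectable.

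Runs of neighbouring reporters on the same side of the pool median were longest on the low side. The longest low run was a row of 27 reporters from 5 pools between 44066061 and 48636707, with a mean of -2.66 ± 2.50 (SD) and values from -11.96 to -0.02. The next low runs held 18 reporters from 144672810 to 146928033 (mean -1.28) and 13 from 39854751 to 43154798 (mean -2.93), each from all 6 pools. The longest and the third longest low runs were separated by 4 reporters and together formed the lowest segment. Over those 8.78 Mb, 41 of 44 reporters lay below the pool median and 9 lay more than 16-fold below it. The means of this region were -1.67 in mPGK-A (5 reporters), -4.48 in mPGK-B (9), -3.72 in mPGK-C (4), -1.96 in mPGK-D (12), -1.75 in mPGK-E (8) and -2.68 in mPGK-F (6). All 6 pools were thus low there, mPGK-B most of all. Values set by the pseudocount enter these means, among them the -11.96 in mPGK-B. The length of a run can turn on a single value: the longest low run was 14 in culture 1 alone and 16 once the 10% of barcodes with the fewest DNA reads were dropped.

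High runs were shorter and tighter. A pair of them held 13 reporters each. The first, from 20313123 to 20654163, packed 13 reporters of 5 pools into 0.341 Mb at a mean of 2.46 ± 1.36 (SD), and begins at the proximal edge of the second segment, next to a reporter at -3.06. The other, from 163286268 to 164470794, lay in the distal segment at a mean of 1.18 ± 0.96 (SD). The third, from 30255697 to 30950573, held 11 reporters from all 6 pools at a mean of 2.33 ± 1.06 (SD) and lies inside the high window at 30000001. A further 3 high runs of 11 reporters lay in the distal segment. The longest low run on other autosomes ran from 14 to 28 reporters, with a median of 18.5, and the longest high run from 11 to 24, with a median of 14.5. In runs of at least 8 lay 11.3% (high) and 13.4% (low) of the reporters of chromosome 2, against 10.8% (high) and 12.3% (low) on the other autosomes.

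For its length, chromosome 2 had fewer wide gaps without any reporter than most autosomes. The chromosome held 7.55 reporters per Mb of its 178 Mb listed span, rank 7 of 19 autosomes, with a median spacing of 60.7 kb. It had 10 gaps over 1 Mb, against a median of 9 on the other autosomes, and its gaps covered 9.36% of the span. This came to 5.61 gaps per 100 Mb, rank 16 of 19, against a median of 8.88 and a range of 4.23 to 12.3 on the other autosomes. The widest gap lay in the distal segment, 3.40 Mb from 174459633 to 177860636, with reporters of mPGK-A at -0.11 and 0.83 on its sides. The second, 2.39 Mb from 84946661 to 87339156, had a reporter at -0.21 on the proximal side and one at 2.86 on the distal side. The third, 1.67 Mb from 81900267 to 83574420, was flanked by reduced reporters at -3.17 and -2.85. So was the fourth, 1.47 Mb from 110327293 to 111796530, with -3.84 and -3.59. The fifth, 1.45 Mb from 107662274 to 109113888, had -1.81 on its proximal and 0.26 on its distal side.

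Reporters at the sides of gaps were lower on average than those of the whole chromosome, though none at the 2 widest was strongly reduced. Over the 20 reporters that flank the 10 gaps, the mean was -1.50 ± 2.67 (SD), against -0.13 over all of chromosome 2. Of the 20, 14 lay below the pool median, while 51.0% of all reporters of chromosome 2 lay above it. The lowest was a reporter of mPGK-D at 62675759 without RNA reads, which borders the sixth gap. Its value of -9.13, set by the pseudocount, enters the mean. The single edge of the main segmentation did not fall on a gap. Placed without mPGK-B, however, the edge lay at 149636852, the distal side of the narrowest of the 10 gaps, which starts at 148558693. With 5 pools in place of 6 the number of gaps over 1 Mb was between 12 and 17, as fewer reporters leave wider spaces. Whether reads can be mapped in the gaps was not tested.

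Reporters with many neighbours were expressed higher than lone ones. The 217 reporters (16.1%) with no other within 100 kb averaged -1.14 ± 2.46 (SD), the 569 with 1 to 2 neighbours -0.50 ± 2.31, the 515 with 3 to 6 neighbours 0.58 ± 2.24 and the 45 with 7 or more 1.17 ± 1.93. Pool means ran from -1.55 to -0.73 for lone reporters and from 0.52 to 1.88 for those with 7 or more neighbours, and these 2 ranges did not overlap. The pool means of the densest group share only 45 reporters. Values for the other autosomes are not given beside them. Of the lone reporters, 10.6% were more than 16-fold below the pool median. The share was 3.50% with 3 to 6 neighbours and 4.44% (2 of 45) with 7 or more. The correlation of expression with the number of neighbours, across reporters of a pool, ran from a Pearson r of 0.243 in mPGK-C to 0.406 in mPGK-D (183 and 249 reporters, which share their neighbours). Numbers of neighbours count reporters of all pools.

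Reporters that lay close together were alike, and the likeness faded with distance. Over pairs from different pools, the correlation was 0.477 within 5 kb (103 pairs), 0.391 at 5 to 20 kb (226 pairs), 0.292 at 20 to 100 kb (967 pairs) and 0.126 at 100 to 500 kb (4280 pairs). It was 0.100 at 500 to 2000 kb and 0.044 at 2000 to 10000 kb. The same reporters enter many pairs, so these values are a description. The other autosomes gave 0.432, 0.345, 0.232, 0.130, 0.064 and 0.023 in the same classes. Some close pairs still differed sharply: within 5 kb, 10 of the 103 pairs from different pools (9.71%) were more than 16-fold apart. The share was near that on the other autosomes, 154 of 1608 pairs (9.58%). On the minus strand, reporters of mPGK-F at 169607630 and mPGK-C at 169608755, 1125 bases apart, had 1.68 and -3.01.

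The 3 highest reporters of chromosome 2 lay in the distal segment. Of the 30 more than 16-fold above the pool median, 15 were among the 289 distal and 15 among the 1057 proximal reporters. The share was thus larger in the distal part. The next highest, mPGK-F at 119699954, was proximal at 5.73, just below the third. The highest, mPGK-D at 151836226 on the plus strand, had 24965 and 29049 RNA reads against 1327 and 1108 DNA reads in the 2 cultures, which is 6.17 above the pool median, or 72.0-fold (edgeR, adjusted p = 2.7e-07). The second, also of mPGK-D, lay 1319 bases away at 151834907 on the minus strand, with 21345 and 21389 RNA reads against 969 and 1073 DNA reads, or 67.9-fold above. Both had 6 neighbours within 100 kb, all above the pool median, with a median of 2.40. The third, mPGK-E at 162856982, was 55.5-fold above its pool median (5.76 and 5.82 in the cultures). Its 3 neighbours within 100 kb ran from -0.18 to 3.72.

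The weakest reporters with RNA reads in both cultures all lay in the proximal part. The lowest, mPGK-B at 119152174, had 7 and 14 RNA reads against 3533 and 3003 DNA reads, 115-fold below the pool median (edgeR, adjusted p = 9.3e-11). Its only neighbour within 100 kb, of mPGK-D and 48049 bases away, was at 1.32. The second, mPGK-B at 73585217, had 5 and 7 RNA reads against 1808 and 1587 DNA reads, 97.3-fold below. The third, mPGK-A at 22815157, was 74.3-fold below, with -5.48 and -6.99 in the cultures. It lies in the second segment, which was high on average, and begins a low run of 5 reporters there (mean -3.17, up to 24279149). A further 28 reporters had RNA reads in 1 culture only, among them mPGK-B at 45646603 with 0 and 1 RNA reads against 8741 and 9994 DNA reads. Its value of -11.96 is set by the pseudocount of 0.5 reads. No RNA read was counted for 13 reporters (0.966%), 5 on the plus and 8 on the minus strand, from all 6 pools, against 1.04% in the rest. They had 197 to 3215 DNA reads over both cultures, with a median of 487, and a count of 0 allows up to 3 reads in a library. Reads were not counted by molecule, so this limit covers counting error only.

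**Figure D4:**
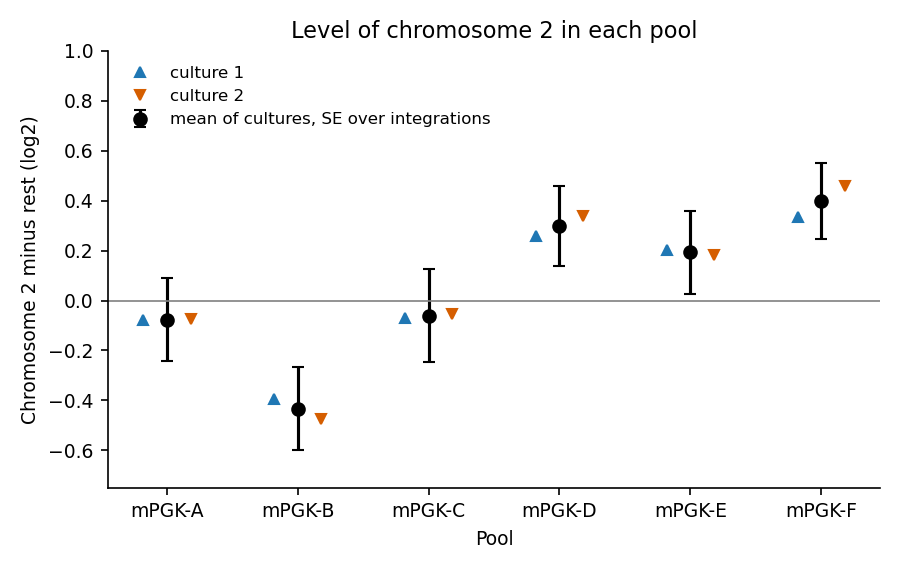
Mean expression of chromosome 2 minus that of the rest of the genome (log2) in each of the 6 pools, with the mean of both cultures in black (error bars are SE over integrations) and each culture as a triangle. The level lies between -0.43 in mPGK-B and 0.40 in mPGK-F, and the cultures of a pool lie close together.

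The pools differed in the level of chromosome 2. Relative to the rest of the same pool it was 0.40 in mPGK-F, 0.30 in mPGK-D, 0.19 in mPGK-E, -0.06 in mPGK-C, -0.08 in mPGK-A and -0.43 in mPGK-B. The cultures of a pool gave nearly the same level, with 0.34 and 0.46 in mPGK-F and -0.39 and -0.47 in mPGK-B. Between pools the range was 0.83 and the SD 0.31, while the SE of a pool, from the spread of its reporters, was 0.15 to 0.19. Neighbours in this order lay 0.10 to 0.11 apart from mPGK-F to mPGK-E and 0.02 apart for mPGK-C and mPGK-A, each less than the SE of a pool. The wider steps were 0.25 between mPGK-E and mPGK-C, about the SE of that difference, and 0.36 between mPGK-A and mPGK-B, 1.52 times its SE. These SEs take the reporters of a pool as independent, while reporters close together were alike. Steps in units of SE are thus a description. The range was the third widest of the 19 autosomes, against a median of 0.49 on the others. Without mPGK-B it was 0.47, and with medians in place of means 0.61. No test was made, since each pool holds other reporters. In mPGK-B, 21 reporters (8.43%) were more than 16-fold below the pool median and 2 (0.80%) as far above it, against 11 (4.74%) and 6 (2.59%) in mPGK-F.

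**Figure D5:**
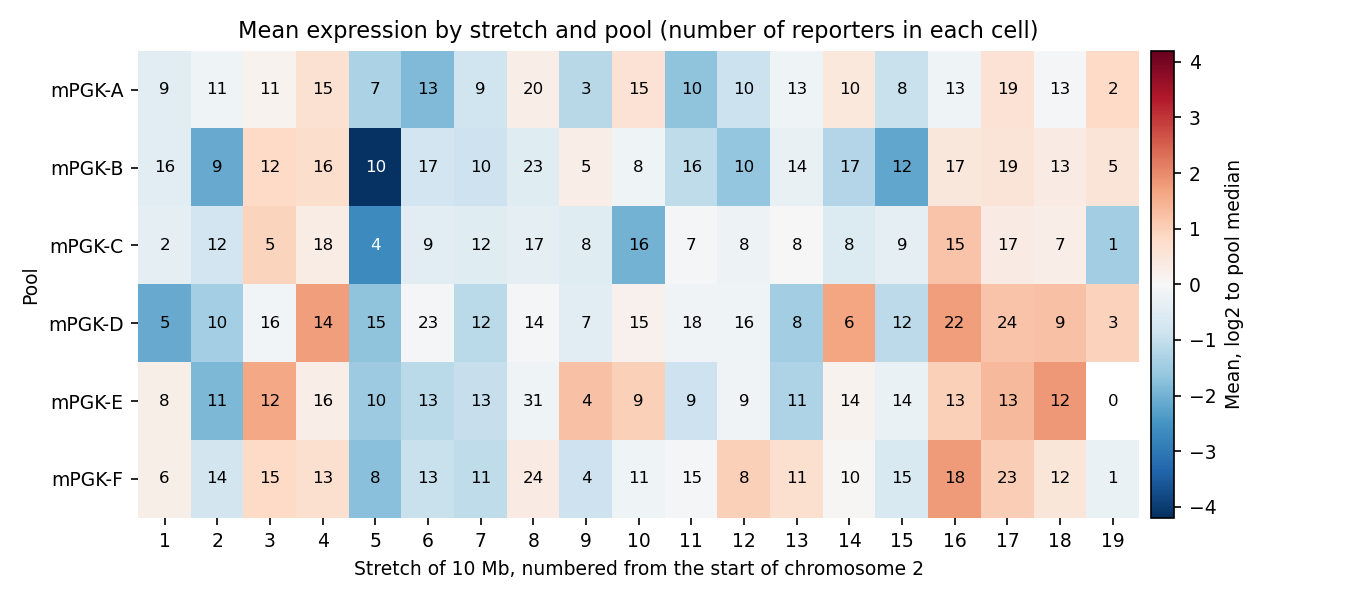
Mean expression (log2, relative to the pool median) of the reporters of chromosome 2 in 19 stretches of 10 Mb, numbered from the start of the chromosome, in each pool. Red is high, blue is low, and numbers give the reporters in each cell. Stretch 5 is low in all 6 pools, down to -4.15 in mPGK-B, and stretch 17 is high in all 6.

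The difference between pools was spread over the chromosome and lay in the level of the reporters within a stretch more than in how many had landed there. Each pool's deviation from the mean of the pools was split into stretches of 10 Mb, and within a stretch into a part from the number of reporters there and a part from their level. The part from placement was between -0.05 and 0.05 in the 6 pools, while that from level was 0.33 in mPGK-F and -0.48 in mPGK-B. Placement here means only the number of reporters per stretch. Which sites were hit within a stretch, and the scatter of few reporters, fall into the part from level, so the split cannot weigh landing sites against level. Set against mPGK-B, mPGK-F had the higher contribution in 15 of 19 stretches. These pools were picked as the lowest and the highest, so the count is a description and favours mPGK-F by that choice. A higher contribution is not always a higher mean: at 50000001 mPGK-F averaged -0.94 and mPGK-B -0.80. The largest difference, 0.11 of the total of 0.83, came from 150000001 to 160000000, where 18 reporters of mPGK-F averaged 1.79 and 17 of mPGK-B averaged 0.48. Next was 40000001 to 50000000, with 8 reporters of mPGK-F at -1.77 and 10 of mPGK-B at -4.15. The third was 110000001 to 120000000, with 8 reporters of mPGK-F at 1.02 and 10 of mPGK-B at -1.63. Together with 70000001 to 80000000, these made up 50.1% of the difference.

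Taken pool by pool, the largest contributions came partly from the same stretches and partly from others. The 3 largest contributions to the high level of mPGK-F were 0.06 from the stretch at 150000001, and 0.05 each from those at 120000001 and 110000001. The 3 largest contributions to the low level of mPGK-B were -0.09 from the stretch at 40000001, -0.08 from that at 130000001, where 17 reporters averaged -1.22, and -0.06 from that at 140000001, where 12 averaged -2.17. Leaving out any single stretch kept mPGK-F highest and mPGK-B lowest, with a range between 0.75 without the stretch at 40000001 and 0.89 without that at 30000001. The stretch at 40000001 holds the mPGK-B reporter at 45646603 whose value the pseudocount sets.

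The strand of a reporter made no detectable difference. The 637 reporters on the plus strand minus the 709 on the minus strand gave -0.11 ± 0.40 (SD, n = 6 pools), below 0 in 4 of 6 pools and from -0.68 in mPGK-F to 0.53 in mPGK-E (exact two-sided sign-flip permutation test, p = 0.53). In mPGK-F the plus strand averaged -0.19 and the minus strand 0.50, and in mPGK-E the plus strand 0.25 and the minus strand -0.28. With medians the difference was 0.0023.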

How the data were processed

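Barcodes were read from RNA and from genomic DNA of 2 cultures of each of 6 pools, per the labels' protocols. The deposited table gives raw counts of reads per barcode as whole numbers, with the position of each integration in mm9; Bowtie2 2.0 is named per the submitters' processing notes. How the 2 PCRs of a culture were combined, which barcodes were kept, and whether positions count from 0 or 1 are not given in the sources used here. Totals are sums over listed barcodes, not library depth, and no columns of other samples were present (0 unused). No filter on low counts removed a barcode.

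From these counts, expression was computed as log2 of the RNA share, with 0.5 reads added, over the DNA share, averaged over both cultures, minus the median of the pool. For barcodes with few RNA reads, the pseudocount sets the value. Levels were compared over 6 pools by exact two-sided sign-flip permutation tests. Windows of 2 Mb with values in at least 3 pools, and chromosomes, were fitted with limma 3.58.1 on pool means weighted by the number of integrations, with Benjamini-Hochberg adjustment over the whole genome. Single barcodes were tested with edgeR 4.0.16 (quasi-likelihood, TMM shifted to the median ratio, adjusted within a pool), with DESeq2 1.42.0 as an alternative, in R 4.3.3; the rest ran in Python 3.11.15. The tests were tried on simulated data. The labels call the cultures technical replicates and do not say whether pools came from separate transfections, so p-values measure only the spread between these pools or cultures. RNA and DNA with the same culture number came from the same culture, per the labels. Their deviations hardly moved together, with correlations of -0.002 to 0.058 over the barcodes of a pool.

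Named in the text were every window past the threshold, the 3 longest high and low runs, every segment edge, the 5 widest gaps, the 3 stretches of 10 Mb that contributed most to the highest and lowest pool, and the 3 highest and 3 lowest integrations with RNA reads in both cultures. Others named were chosen after their values were seen. The members, lists and tests were chosen with earlier results of these data known, and the reading of the edge in pools left out was added after seeing the data. The promoter sequence is from RefSeq (GRCm38.p6).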

Additional observations from a re-analysis of the deposited data

Results flagged for a closer look

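The level of chromosome 2 minus the rest lay on different sides of 0 in different pools, with both cultures of a pool on the same side. It was 0.40 in mPGK-F, 0.30 in mPGK-D and 0.19 in mPGK-E, against -0.061 in mPGK-C, -0.077 in mPGK-A and -0.43 in mPGK-B. The difference between these pools was not tested.

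In 2 of the 34 groups of 6 pools examined, a single pool lay far from the others, while chance alone marks about 1 group in 20. In the stretch of 10 Mb at the start of the chromosome, mPGK-D had a mean of -2.13 over 5 reporters, while the other pools lay between -0.49 and 0.24. Among the 5 was the reporter at 4253414, which had no RNA reads and whose value of -7.17 the pseudocount sets. In the stretch from 30000001 to 40000000, mPGK-D had a mean of 1.75 over 14 reporters, while the other pools lay between 0.28 and 0.75.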

How the results depend on the processing

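The step between high and low windows read in left-out pools was 1.16 to 1.47 in the 9 alternatives that kept all 6 pools (exact permutation p = 0.031), and 1.08 to 1.60 with 5 pools, where 0.062 is the smallest exact p. The level of chromosome 2 ran from -0.02 to 0.15 when a culture or pool was left out, and turned below 0 without mPGK-F. In the fit of all chromosomes it ran from -0.02 to 0.17, below 0 without mPGK-D (-0.00038) or mPGK-F (-0.016). The strand difference ran from -0.24 to 0.0023 in those cases, above 0 without mPGK-F, and was 0.0023 with medians. The count of higher windows was 7 with a pseudocount of 5 reads, 8 with windows of 1 Mb, 7 with windows shifted by 1 Mb, 2 with no weights, and 4 to 6 when a culture or pool was left out. The count of lower windows was 3 without the lowest 10% of DNA counts, 2 with no weights, 2 with windows held by all 6 pools, and 2 to 6 when a culture or pool was left out (2 without culture 1, 3 without mPGK-B or mPGK-E). With no weights, the windows at 154000001 and 166000001 missed the threshold (limma, adjusted p = 0.12 and 0.061). The range of the pools was 0.61 with medians and 0.47 to 0.93 when a culture or pool was left out, lowest without mPGK-B. The longest low run was 16 without the lowest 10% of DNA counts and 14 to 27 when a culture or pool was left out, shortest without culture 2. A penalty of 2 gave 5 segments in place of 2. Gaps numbered 63 over 500 kb and 2 over 2 Mb, and 12 to 17 over 1 Mb with 5 pools. Except where stated, the cause was not tested.

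With the culture number as a replicate block, 496 reporters were higher and 422 lower, against 501 and 424 without it, so the pairing moved neither count by over 1.5 times. DESeq2 gave 505 higher and 423 lower. Leaving out a culture leaves no residual degrees of freedom in that test, so it was not run. Depth limits the lowest values: with few RNA reads, the pseudocount sets the level.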
